A study of Mus musculus with 5 samples.

Results

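The genes described here encode the machinery that moves newly made proteins into the endoplasmic reticulum (ER) and carries them to and from the Golgi. They were chosen by gene symbol alone, with the similarly named Srpk kinases left out, and comprised 84 probes of 56 genes, out of 25697 probes and 16593 named genes on the array. They cover 9 roles, from the Sec61 channel and its partners, the TRAP complex, signal peptidase, the signal recognition particle and oligosaccharyltransferase in the ER to the COPII and COPI coats, the p24 cargo receptors and the Arf GTPases. RNA came from HL-1 cells, a line of mouse atrial heart muscle cells that goes on dividing in culture, here with no stated treatment, and from the microvesicles these cells release. Microvesicle RNA (2 arrays) and cell RNA (2 arrays) were compared to ask how the RNA carried by the vesicles differs from that of its source, and 1 further array held microvesicle DNA, given a poly-T tail before labelling. All samples come from 1 cell line, and nothing in the labels says that replicates came from separate cultures, so p-values measure only the spread between these arrays, which may be technical.

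A protein destined for secretion or for a membrane is recognised by the signal recognition particle while it is still being made, and is threaded through the Sec61 channel into the ER, where signal peptidase trims it and oligosaccharyltransferase adds sugars. COPII coats bud the vesicles that leave the ER, and COPI coats, recruited by Arf GTPases, return proteins from the Golgi. In atrial heart muscle cells this route supplies ion channels, receptors and the stored atrial natriuretic peptide.

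The arrays differed widely in quality, and this bears on every value below. A probe counted as detected at a detection p under 0.01, the share of negative control probes at or above it. The median raw signal was 62.6 to 63.6 on microvesicle array 1 and both cell arrays, and 90.9 on microvesicle array 2, which detected 5605 probes against 2024 on microvesicle array 1. Microvesicle array 1 shared chip 1 with the cell arrays, and microvesicle array 2 shared chip 2 with the DNA array. Of 10 atrial cardiomyocyte markers 9, all but Tnni3, were detected on both cell arrays, against 3 and 8 on the microvesicle arrays. No fibroblast (of 6), endothelial (of 5) or macrophage (of 3) marker was detected on any array, and 1 of 3 epithelial markers was, on microvesicle array 2. Of 4 smooth muscle markers, Smtn and Tagln were detected on the cell arrays and the defining markers Myh11 and Cnn1 on none. The summed raw signal of that list was 302 and 409 on the microvesicle arrays against 952 and 707 on the cell arrays, and its part in the differences below was not tested. Since the RNA was extracted in bulk, fewer vesicles carrying a transcript and fewer copies per vesicle cannot be told apart.

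The first question was which of these transcripts could be seen at all. Of the 84 probes, 20 were detected on cell array 1 (23.8%, against 16.3% of all probes) and 18 on cell array 2 (21.4% against 14.1%). On the microvesicle arrays 11 were detected on array 1 (13.1% against 7.88%) and 36 on array 2 (42.9% against 21.8%). The members were thus detected more often than probes in general on every RNA array, and most often on microvesicle array 2. Both cell arrays detected 17 probes (20.2% against 13.5%), all 4 RNA arrays 9 (10.7% against 5.96%) and none of the RNA arrays 39 (46.4% against 70.5%). Another 4 probes, of Copg1, Srp68, Tmed3 and Tmed4, were on both cell arrays and neither microvesicle array (4.76% against 4.09%). The 9 were also the full set seen on both microvesicle arrays (6.21% of all probes), so none was found in both vesicle preparations without the cells (0.101%), and none on microvesicle array 1 alone (0.16%). A detection p of 0.05 gave 17 member genes on microvesicle array 1 in place of 11.

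**Figure D1:**
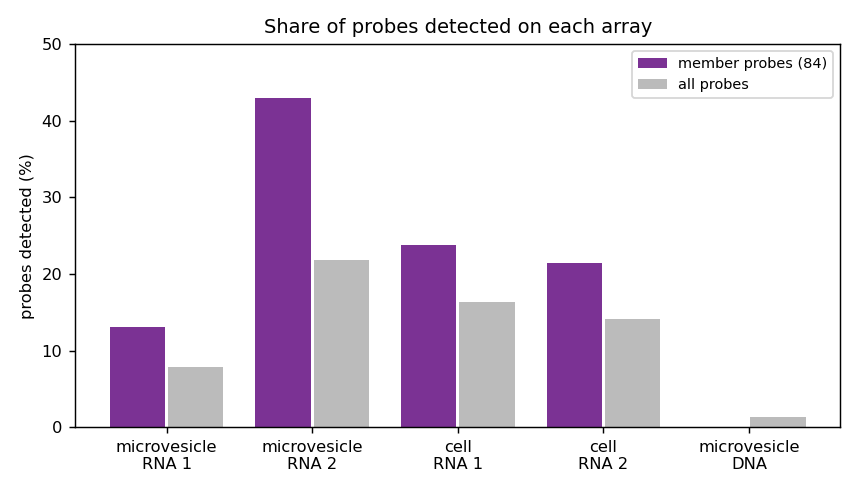
Share of probes detected at a detection p under 0.01 on each of the 5 arrays, in percent, for the 84 member probes and for all probes. The member bars stand above the bars of all probes on every RNA array, by 42.9% to 21.8% on microvesicle RNA array 2, and no member was detected on the DNA array.

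Every role had at least 1 undetected member. For the channel itself, Sec61a1 was detected and its paralog Sec61a2 was not, nor was Sec62, a partner used after translation. Of the TRAP complex, which assists the channel, Ssr1 was not detected. Among the oligosaccharyltransferase genes of the symbol rule only Rpn2 was seen, with Rpn1 and the further subunit Ddost on no RNA array. Dad1, a subunit outside the rule given below, was on all 4 RNA arrays. In the COPII group, in which the Sec22 SNAREs were counted too, 7 of 13 genes were on no RNA array. Among them were the inner coat genes Sec23a, Sec23b, Sec24a, Sec24b and Sec24d. COPI was the most complete, with only Copb1 of its 7 genes unseen. The undetected p24 genes were Tmed2, Tmed5, Tmed6 and Tmed11, and the undetected Arf genes Arf4, Arf5 and Arf6. The 39 undetected probes had raw signals of 45.2 to 107 over the RNA arrays. A probe can fail for its own reasons, since 3 of the 4 Cope probes were at background where the other was bright, so an undetected gene is not shown to be unexpressed.

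The second question was how the level of each transcript differed between microvesicles and cells. Detection on at least 2 of the 4 RNA arrays was required for the test, which 18 member probes met (21.4% against 15.1% of all probes), and the brightest probe stood for each of 17 genes. All 17 were on both cell arrays, so no gene seen only in the microvesicles entered. Of the 17, 9 were also on both microvesicle arrays and would have passed without the cells. The values below are normalized log2 signals, and a difference is the microvesicle mean minus the cell mean, with its SE and n = 2 arrays per group. Under limma 0 of the 17 genes were lower and 0 higher at an adjusted p of 0.05, and the same held for all tested genes (0% lower and 0% higher). At an unadjusted p under 0.05, limma put 2 member genes lower and 0 higher, against 21.2% and 5.83% of all 3102 tested genes. The 2 were Copg1 and Tmed4, whose probes neither microvesicle array detected.

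Among the 17 genes differences below 0 were the more common, at 12 against 5 above, as they were over all tested genes, at 2189 against 913. Copg1, Srp68, Tmed3 and Tmed4 passed the detection filter through the cells alone. With no filter, all 56 genes gave a median of 0.064, against 0.016 over all genes. The members added this way were undetected on the cell arrays by their brightest probes, where a lower level could not be seen. That median therefore cannot tell whether the lean depends on the filter. The 9 members seen on all 4 RNA arrays had a median of -1.08, against -0.58 over all genes so detected. For 9 of the 17 genes the higher microvesicle value was still under the lower cell value (52.9% against 50.3%), and for 2 the microvesicle values were the higher ones throughout (11.8% against 15%). These shares are close to the background. The 2 higher genes were Ssr3 and Copz2, and microvesicle array 1 did not detect the Copz2 probe. The median difference was -1.20 against -0.84 over all tested genes. The gap between the microvesicle arrays was much wider than that between the cell arrays, with median absolute differences of 1.94 and 0.25 over these genes. On microvesicle array 1 the median difference from the cell mean was -0.23 and 11 of 17 genes lay within 2-fold of the cells (64.7% against 55.6%), with 4 over 2-fold below (23.5% against 28.1%). On microvesicle array 2 it was -1.99, with 4 of 17 within 2-fold (23.5% against 26.9%) and 12 over 2-fold below (70.6% against 59.5%). In 14 of 17 genes array 2 lay below array 1 (82.4% against 72.3%).

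The calls depended on which spread and scaling were used. Median scaling in place of quantile normalization moved the median of all tested genes from -0.84 to -1.28 and called 10 of the 17 lower in limma (42.9% of all tested genes) and 0 higher (0.193%). No normalization between arrays also called 10 lower (37.5%) and 0 higher (0.129%), and a variance trend 2 lower (15%), Copg1 and Tmed4, and 0 higher (0.258%). Wherever Copg1, Tmed3 or Tmed4 is called in this paragraph, the probe entered through the cells alone and its microvesicle values are background. With median scaling and with no normalization the 10 were alike Sec61a1, Ssr2, Srp54a, Rpn2, Cope, Copg1, Copz1, Tmed3, Tmed10 and Arf1, with adjusted p from 0.013 to 0.0213 and from 0.0151 to 0.029. With chip as a block 5 were lower (42.9%), Srp54a, Cope, Copg1, Tmed3 and Tmed4, and 3 higher (26.5%), Ssr3, Sec16a and Sec24c, which is also the comparison within chip 1, without microvesicle array 2. Without microvesicle array 1 they were 13 lower (70.1%) and 2 higher (17.4%). The fits with chip as a block or without a microvesicle array take their spread from the cell arrays alone and assume that the microvesicle arrays vary as little. Where a normalized value of microvesicle array 1 is close to the cells below, or above them, that holds after quantile normalization. In raw signal array 1 was below both cell arrays for Ssr3 and Sec24c, and between them for Sec16a.

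**Figure D2:**
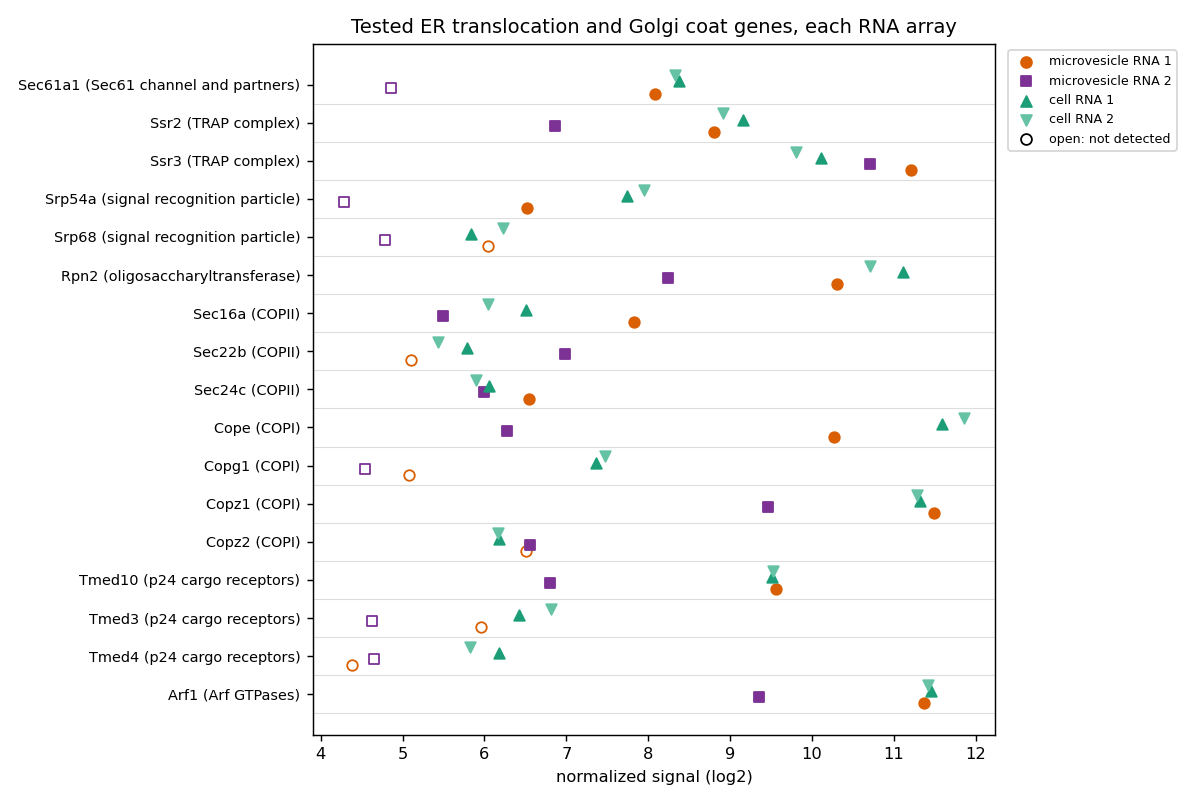
Normalized signal (log2) of the 17 tested genes on each RNA array, by role, with open symbols where the probe was not detected. The cell arrays lie close together while the microvesicle arrays are spread, with Cope at 10.27 and 6.28 and Ssr3 at 11.20 and 10.70, above both cell arrays.

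Among the genes of the translocation channel, Sec61a1, which forms the pore, stood at 8.08 and 4.86 on microvesicle arrays 1 and 2 and at 8.38 and 8.32 on the cell arrays. After quantile normalization array 1 was thus near the cells, but its raw signal was 120 against 515 and 370, and array 2, at 109 and a detection p of 0.0113, narrowly missed detection. The difference was -1.88 ± 1.25 (limma adjusted p = 0.370), with -0.27 on array 1 alone and -3.49 on array 2 alone, and it was -2.96 with median scaling (adjusted p = 0.0172). Sec61b, the small beta subunit, and Sec63, which couples the channel to a lumenal chaperone, were detected on microvesicle array 2 alone.

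The TRAP complex gave opposite values for its tested genes. Ssr3, the gamma subunit, stood at 11.20 and 10.70 in the microvesicles and at 10.11 and 9.81 in the cells. Both microvesicle arrays lay above both cell arrays, and the difference was 0.996 ± 0.387 (limma adjusted p = 0.206), though it was -0.17 with median scaling and -0.096 with no normalization between arrays. Its raw signal on array 1, 712, was below the 1636 and 1004 of the cell arrays, while array 2 was above them at 2082. Ssr2, the beta subunit, stood at 8.80 and 6.87 against 9.16 and 8.91 in the cells. Both arrays lay below the cells, array 1 the less so, and the difference was -1.20 ± 0.80 (adjusted p = 0.370), or -2.28 with median scaling (adjusted p = 0.0189). Ssr3 was the only one of the 9 members seen on all 4 RNA arrays that lay above both cell arrays on each microvesicle array, where the share among all genes so detected was 25.8%.

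For the signal recognition particle, Srp54a, the GTPase that binds the signal sequence, stood at 6.52 and 4.29 in the microvesicles and at 7.75 and 7.94 in the cells. Both microvesicle arrays lay below the cells, and array 2 did not detect the probe, so its value there is background. The difference was -2.44 ± 0.90 (limma adjusted p = 0.191), with -1.33 on array 1 alone, and it was -3.44 with median scaling (adjusted p = 0.0131). The mouse genome holds near-identical copies of this gene, so the probe may report more than 1 of them. Srp68, which helps to hold the particle together, stood at 6.04 and 4.78 against 5.84 and 6.22. The difference was -0.62 ± 0.59 (adjusted p = 0.506). Array 1 fell between the cell arrays, and neither microvesicle array detected the probe. The lowest detected value of array 1, 6.51, lies above both cell values, so array 1 sets no bound and the sign is not settled. Rpn2, an oligosaccharyltransferase subunit, stood at 10.30 and 8.24 against 11.11 and 10.71, below the cells on both arrays (-1.64 ± 0.85, adjusted p = 0.285, or -2.80 and adjusted p = 0.0137 with median scaling). 

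The lowest difference among the tested members was that of a COPI gene. Cope, the epsilon subunit of coatomer, stood at 10.27 and 6.28 in the microvesicles and at 11.58 and 11.86 in the cells. Both microvesicle arrays lay below the cells, and the difference was -3.45 ± 1.53 (limma adjusted p = 0.241), at -1.45 on array 1 alone and -5.44 on array 2 alone, and it was -4.47 with median scaling (adjusted p = 0.0135). Its raw signal was 4188 ± 165 and 4123 ± 143 (SE over beads) on the cell arrays and 361 ± 14 and 192 ± 6.8 on the microvesicle arrays. The SE covers the beads of 1 array only, not the spread between preparations. Copg1, the gamma subunit, stood at 7.36 and 7.47 in the cells and was not detected on either microvesicle array by this probe, at least 3.29-fold lower. Its difference of -2.60 ± 0.38 had the smallest p of the members (limma adjusted p = 0.0917), and it was -2.99 with median scaling (adjusted p = 0.013). A pair of other Copg1 probes was instead detected on microvesicle array 2 alone, at raw signals of 134 and 115, so the probes of this gene disagree. 

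The zeta subunits of coatomer depended on the scaling. Copz1 stood at 11.49 and 9.46 in the microvesicles against 11.31 and 11.28 in the cells, so that array 1 lay above the cells and array 2 below. Its difference was -0.82 ± 0.82 (limma adjusted p = 0.531), and it was 0.20 without microvesicle array 2 but -1.91 with median scaling (adjusted p = 0.0213). Its raw signals were 899 and 924 in the microvesicles against 3493 and 2731 in the cells, lower on both arrays. Copz2, its paralog, stood at 6.51 and 6.55 against 6.18 and 6.17, above both cell arrays by a difference of 0.36 ± 0.32 (adjusted p = 0.485), which was -0.15 with median scaling and -0.077 with no normalization. Array 1 did not detect the Copz2 probe, so its value of 6.51 there is background and its place above the cells on that array is not settled. The raw signal of Copz2 on array 1, 80.6, was below the 132 and 105 of the cell arrays, while array 2 was at 213. Arf1, the GTPase that recruits coatomer to the Golgi, stood at 11.36 and 9.35 against 11.45 and 11.41. Its difference was -1.08 ± 0.82 (adjusted p = 0.424), at -0.069 on array 1 and -2.09 on array 2, and it was -2.17 with median scaling (adjusted p = 0.0167). Its raw signals, 803 and 863 against 3838 and 2921, were lower than the cells on both microvesicle arrays.

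None of the 3 tested genes of the COPII group, in which the Sec22 SNAREs were counted too, had both microvesicle arrays on one side of the cells. Sec16a, the scaffold of ER exit sites, stood at 7.83 and 5.49 in the microvesicles and at 6.50 and 6.05 in the cells. Array 1 lay above the cells and array 2 below, with a difference of 0.38 ± 0.95 (limma adjusted p = 0.804) that was -0.32 with median scaling and -0.25 with no normalization. Its raw signals were 108 and 142 in the microvesicles against 158 and 99.4 in the cells. Sec24c, a cargo adaptor of the inner coat, stood at 6.54 and 5.99 against 6.06 and 5.90, a difference of 0.29 ± 0.38 (adjusted p = 0.634) that was -0.14 with median scaling and -0.069 with no normalization. Sec22b, a SNARE that fuses vesicles between ER and Golgi, went the other way in normalized signal, at 5.11 and 6.98 against 5.79 and 5.43. Here array 2 was the higher one and array 1 did not detect the probe (0.43 ± 0.78, adjusted p = 0.728, and -0.50 without microvesicle array 2). 

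The 3 tested p24 cargo receptors, which sort proteins into both coats, had differences below 0, and others of the family were seen on microvesicle array 2 alone. Tmed10 stood at 9.56 and 6.80 in the microvesicles against 9.51 and 9.52 in the cells. The difference was -1.33 ± 1.08 (limma adjusted p = 0.447), which was 0.048 without microvesicle array 2 and -2.42 with median scaling (adjusted p = 0.0158). Its raw signals, 244 and 235 against 1103 and 832, were lower on both microvesicle arrays. Tmed3 stood at 6.42 and 6.82 in the cells and was not detected in the microvesicles by its brightest probe, at least 1.89-fold lower (adjusted p = 0.253, or 0.0194 with median scaling), while a second probe was on microvesicle array 2 and cell array 1 at -0.34 ± 0.37. Tmed4 stood at 6.17 and 5.82 in the cells and at 4.38 and 4.66 in the microvesicles, a difference of -1.48 ± 0.36 (adjusted p = 0.120). Neither microvesicle array detected this probe. The lowest detected value of array 1, 6.51, lies above both cell values, so array 1 sets no bound. Of the other Tmed4 probes, 1 was detected on microvesicle array 2 alone at a raw signal of 172, so the probes of this gene also disagree.

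**Figure D3:**
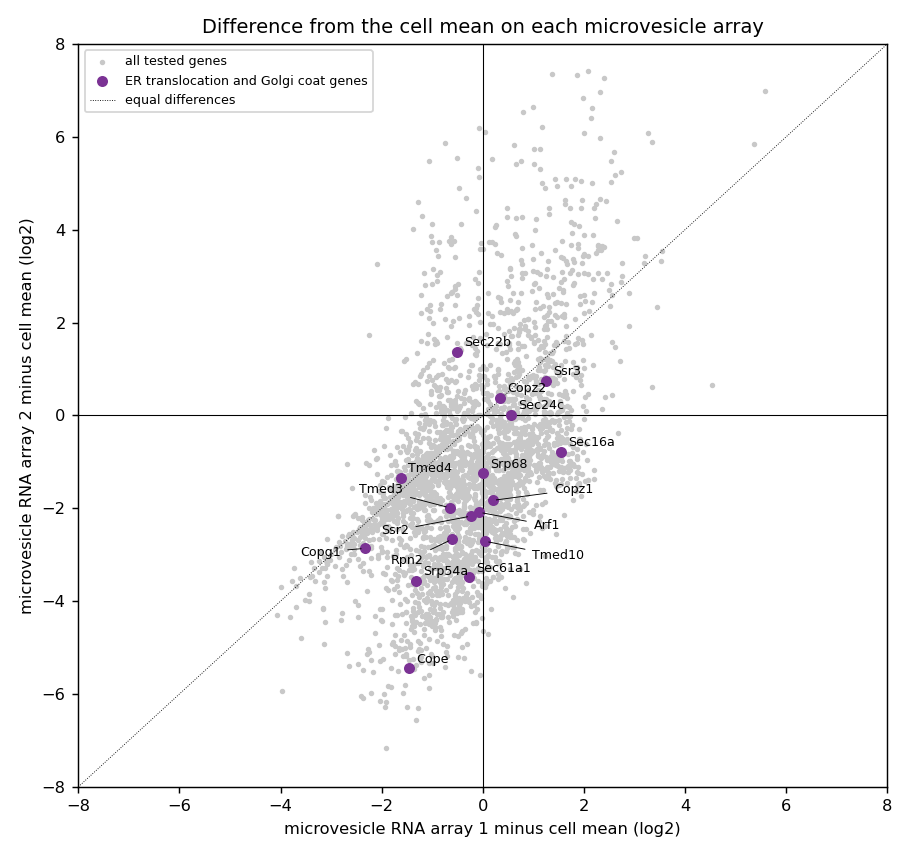
Difference from the cell mean (log2) on microvesicle RNA array 1 (x axis) and array 2 (y axis) for the 17 member genes and all 3102 tested genes, with a dotted line where the differences would be equal. On these quantile normalized values 11 of 17 members lie within 2-fold of the cells on array 1 and 14 below the line, Cope reaches -5.44 on array 2, and Ssr3 and Copz2 are above 0 on both.

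A larger set of members was seen on microvesicle array 2 and nowhere else among the RNA arrays. It held 24 probes of 19 genes, 28.6% of the member probes against 12.3% of all probes. Their raw signals on that array ran from 110 to 1508, while on the other RNA arrays none passed 80.0. Of the 24 probes, 3 exceeded 1000 (12.5%, against 3.57% of all probes on that array alone). With 1 array these values have no replicate check, and array 2 differs from the others in chip as well, so the part of the chip cannot be told apart. Raw signals are not normalized between arrays.

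The brightest was Arf2, an Arf GTPase close to Arf1. Its raw signal was 1508 ± 64 (SE over 38 beads) on microvesicle array 2, against 73.7 on microvesicle array 1 and 72.5 and 71.4 on the cell arrays. Srp9, the signal recognition particle protein that works with Srp14 to pause translation, followed at 1159 ± 37 against 68.9, 70.3 and 73.2. Both Srp9 probes showed this pattern, the second at 329. Spcs3, a signal peptidase subunit, was at 1052 ± 41 against 68.1, 71.8 and 58.1.

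Further members of the same complexes followed. Ssr4, the delta subunit of TRAP, was at 699 ± 20 on microvesicle array 2 against 62.6 to 68.4 on the other RNA arrays. Both probes of Tmed8 were bright there, at 626 and 619, and both of Spcs1, a second signal peptidase subunit, at 515 and 157. Of 3 Sec22c probes, a relative of Sec22b, 2 were detected at 493 and 306. The remaining genes had raw signals of 226 or less, among them Tmed9 (226), the COPII outer coat gene Sec13 (214), Arf3 (196), Copb2 (137) and Copa (115) of coatomer, and Srp14 (125). The dimmest lie near the detection limit of microvesicle array 2, whose median raw signal was 90.9. Copa had a detection p of 0.00251 and Sec61b of 0.00877. Once normalized, Sec61b stood at 4.88 on that array, between the 4.42 and 4.95 of the cell arrays. Of the signal peptidase genes of the symbol rule, Spcs1 and Spcs3 were seen on this array only and Spcs2 on none. Of the 16 member genes with several probes, 10 had probes that differed in which arrays detected them.

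**Figure D4:**
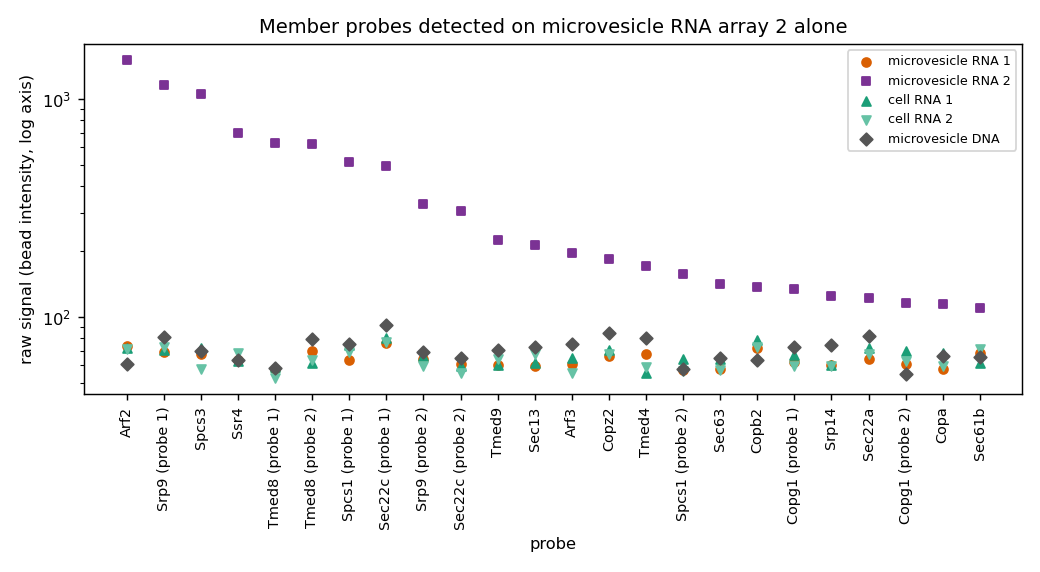
Raw signal (bead intensity, log axis) on all 5 arrays for the 24 member probes detected on microvesicle RNA array 2 alone among the RNA arrays, brightest first. Array 2 runs from 1508 for Arf2 down to 110 for Sec61b, while the other RNA arrays stay at 80.0 or less.

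The microvesicle DNA array detected none of the 84 member probes, against 1.33% of all probes (343, where 257 would pass a detection p of 0.01 by chance). A count of 0 of 84 allows a share of up to 3.57%, and this limit covers counting error only. Raw signals of the members on that array ran from 52.0 to 92.0 with a median of 69.6, against 70.2 for all probes. The lowest detection p was 0.0125, for a probe of Srp19 with a raw signal of 92.0 ± 3.6 (SE over 34 beads), followed by a Sec22c probe at 91.5. At a detection p under 0.05, 2 member probes passed, 2.38% against 5.06% of all probes. Arf2, Srp9 and Spcs3, bright in the RNA of the vesicles on the same chip, had no DNA signal above background.

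Other genes of the same route, outside the symbol rule, were taken from 7 lists. Of 96 such genes on the array 43 were tested, and limma called 0 lower and 0 higher at an adjusted p of 0.05, with 10 lower (23.3% against 21.2% of all tested genes) and 1 higher (2.33% against 5.83%) at an unadjusted p under 0.05. Their median difference was -1.35 against -0.84 over all tested genes, with 26 under both cell arrays in each microvesicle sample (60.5% against 50.3%) and 2 over them (4.65% against 15%). These shares are not independent of the filter, since a gene could enter through the cells alone with microvesicle values at background. Of the genes named below, Gbf1, Arfgap3, Stx5a, Cog1, Bag6, Sgta and Sil1 did so, and the number among all 43 was not counted. Of 12 other COPI and Arf factors 5 were tested, with 3 below and 0 above, among them Gbf1 and Arfgap3. Gbf1, the exchange factor that activates Arf1, was at -1.84 ± 0.36 (adjusted p = 0.0976 in limma). Arfgap3, which switches Arf1 off, was at -1.54 ± 0.41 (adjusted p = 0.129). Array 1 sets no bound for either, since its lowest detected value, 6.51, lies above their cell means. Neither microvesicle array detected these probes, which entered the test through the cells. Of 18 other COPII factors 8 were tested, with 6 below and 1 above. 

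The exception was Sar1a, the GTPase that starts COPII assembly. It stood at 7.97 and 9.36 on the microvesicle arrays against 5.93 and 5.46 on the cell arrays, so all 4 arrays detected it and both microvesicle arrays lay above. The difference was 2.97 ± 0.63 (limma adjusted p = 0.103), and it was 2.15 with median scaling (adjusted p = 0.213) and 2.22 with no normalization (adjusted p = 0.245), against 2.28 with chip as a block (adjusted p = 0.00133). Its raw signal on array 1, 114, was level with that of cell array 1 (114 against 80.6 on cell array 2), and on array 2 it was 872. Yif1b, a Golgi membrane protein of that list, was at -1.31 ± 0.50, with a second probe at -2.56 ± 0.38. The first of these probes was also detected on the DNA array, at a raw signal of 94.5 (detection p of 0.00501). Its raw signal on microvesicle RNA array 1 was 82.6.

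The other lists hold few tested genes each, and their shares are to be read against the 50.3% of all tested genes that lay below. Of 15 tested SNARE and tether genes, out of 26, 8 were under the cells (53.3%) and 0 over. Stx5a was at -1.76 ± 0.33 (adjusted p = 0.0974 in limma), with no bound from array 1, and Cog1 was at least 3.62-fold lower (adjusted p = 0.134). Both were undetected in the microvesicles by these probes, though another Stx5a probe was seen on microvesicle array 2 only. Of 4 tested genes of the ER membrane protein complex, which inserts membrane proteins, 3 lay below (75%). Emc4 was at -2.37 ± 0.79, with -1.40 on array 1 and -3.34 on array 2, and Emc8 at -2.94 ± 1.71, with -0.70 and -5.18, while a second Emc8 probe was at -0.83 ± 0.66 and undetected in the microvesicles. Of 5 tested targeting factors 2 lay below (40%), Bag6 (at least 3.46-fold) and Sgta (-1.37 ± 0.46, with no bound from array 1). Bag6 and Sgta hold tail-anchored proteins before insertion and were undetected on both microvesicle arrays. Of 3 tested folding genes 2 lay below (66.7%), the exchange factor Sil1, undetected in the microvesicles and at least 4.49-fold lower, and the disulfide isomerase P4hb at -1.63 ± 0.96, with -0.42 on array 1 and -2.84 on array 2. The oligosaccharyltransferase subunits outside the rule were split, with Dad1 at -3.41 ± 1.57 (limma adjusted p = 0.253) and Ostc at 1.14 ± 0.54 (adjusted p = 0.258). Dad1 was at -1.36 on array 1 and -5.46 on array 2, and Ostc at 0.58, undetected, and 1.70.

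**Figure D5:**
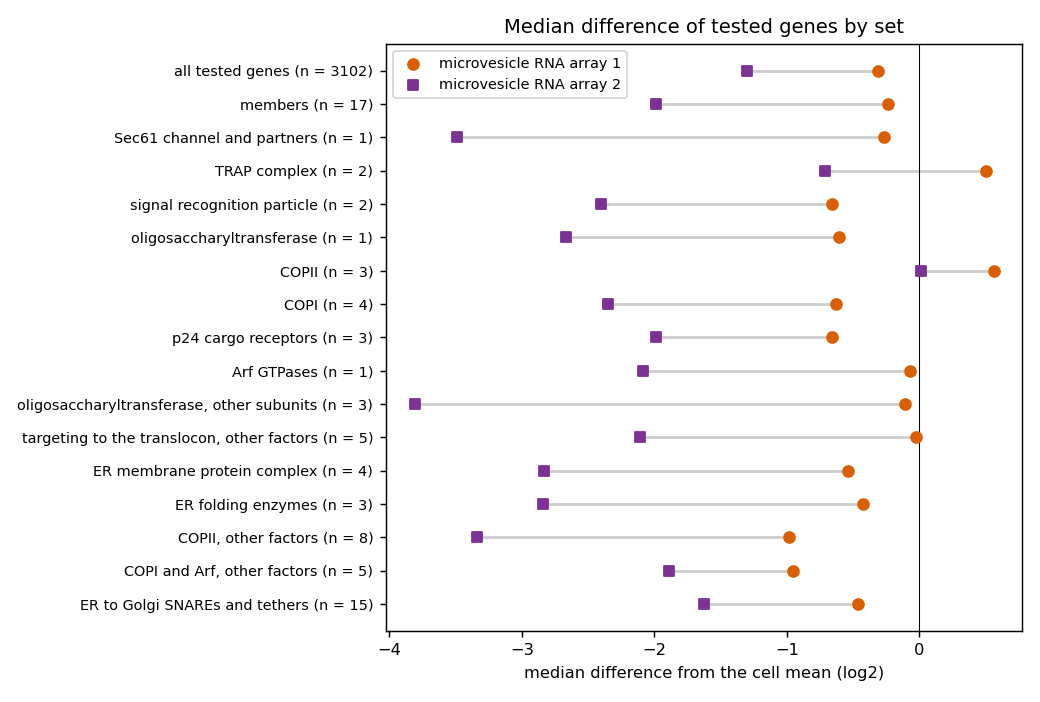
Median difference from the cell mean (log2) on microvesicle RNA arrays 1 and 2 for tested genes of each role and of each further list, with the number of tested genes. Array 2 lies to the left of array 1 in every set, and over all tested genes the medians are -0.31 and -1.30.

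Promoter sequence was looked up as a property that the symbol rule did not use. The RefSeq table (GRCm38.p6) holds 54 promoters of 48 of the 56 genes, each 300 bases long, from 250 before to 50 after a start site. The motif TGACGTGG, the core of the unfolded protein response element, was found on either strand in 7 of the 54 (13%), against 0.676% of all 32851 promoters and 0.786% of the 16535 promoters of genes on the array. It lies in 6 genes, of which Arf1, Copb1, Copb2, Sec23a and Sec24d encode coat or coat-recruiting proteins and Sec16b is a relative of Sec16a. The shorter ACGTG, which overlaps it, was in 59.3% of member promoters against 19.6% of all, CCAAT alone in 44.4% against 37.4%, and the ER stress element, CCAAT followed by CCACG after 9 bases of any kind, in none against 0.119%. Base composition was not matched between the sets. A match describes the letters only and says nothing about binding. The stretches around the motif are shown to let its place and flanks be compared, 5′ to 3′ on the strand of the gene with the motif in capitals, which reads CCACGTCA where it lies on the opposite strand.
Arf1, chr11:59228223-59228262, minus strand: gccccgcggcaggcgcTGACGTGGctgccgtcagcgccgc
Copb1, chr7:114254685-114254724, minus strand: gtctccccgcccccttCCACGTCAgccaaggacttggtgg
Copb2, chr9:98563708-98563747, plus strand: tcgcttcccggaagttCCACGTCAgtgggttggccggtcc
Sec16b, chr1:157506736-157506775, plus strand: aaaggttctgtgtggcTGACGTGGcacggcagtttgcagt
Sec23a, chr12:59011988-59012027, minus strand: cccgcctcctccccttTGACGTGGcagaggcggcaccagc
Sec24d, chr3:123267454-123267493, plus strand: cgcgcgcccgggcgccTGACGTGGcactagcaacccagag
The motif centre lies 24 bases before the listed start site in Copb1, 3 before in Copb2, 40 before in Sec16b, 22 before in Sec24d and 10 after it in Sec23a, and in Arf1 80 before 1 start site and 25 after another. Of these 6 genes only Arf1 was detected on the cell arrays, and Copb2 on microvesicle array 2 alone.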

How the data were processed

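RNA of HL-1 microvesicles and cells (2 arrays each) and microvesicle DNA (1 array) was read on Illumina 1-colour mouse arrays. Per the file headers, the authors deposited for each probe the mean bead intensity without normalization, its standard error, the number of beads and a detection p-value. The submitters' processing notes name BeadStudio 3.3. The deposited processed intensity values, made by steps not given in the sources used here, served as an alternative. Signals of the 4 RNA arrays were corrected and quantile normalized with neqc (limma 3.58.1, R 4.3.3, offset 16), which compresses differences of dim probes. The 3878 probes with detection on at least 2 RNA arrays entered limma's lmFit and eBayes, and two-sided p-values were adjusted by Benjamini-Hochberg over all of them. The fit was tested on simulated data. A gene was represented by its probe of highest mean log2 signal. Where no array of a group detected a probe, the fold is a bound against the higher of its own value and the lowest detected value, averaged over the arrays. For the microvesicle arrays that lowest value was 6.51 on array 1 and 4.88 on array 2. No fold is given where the cell mean lay below 6.51, since array 1 then sets no bound. The number of arrays limits the precision.

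Gene symbols came from the platform annotation (1 symbol for 23978 probes, none for 1719), and all 84 member probes matched RefSeq by gene identifier. Every member gene could be named, those tested with all their values, and from each further list the 2 tested genes with the smallest p. Members and lists were chosen with earlier results of these data known. Alternatives were other scalings, background corrections, filters, a variance trend, chip or replicate number as a block, probe averaging and leaving out each array.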

Additional observations from a re-analysis of the deposited data

How the results depend on the processing

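In the main setting 0 member genes were lower and 0 higher, 9 lay below and 2 above both cell arrays, and the median log2 difference was -1.20. Lower calls moved to 10 with median scaling and 10 with no normalization between arrays, 2 with a variance trend and 5 with chip as a block, which also called 3 higher. Member genes above the cells became 0 with both of those scalings, 11 of 56 with no filter and 5 of 25 at detection p 0.05. With detection on all 4 RNA arrays, 1 of 9 lay above and 4 below. Over all genes the count above moved as well, from 464 of 3102 to 87 with median scaling and 75 with no normalization. It was 3147 of 16593 with no filter and 666 of 4470 at detection p 0.05. Of all 1300 genes detected on all 4 RNA arrays, 336 lay above and 459 below. With no filter the member median was 0.064. Leaving out each array gave 0 to 13 lower calls, 0 to 3 higher, 9 to 13 genes below, 2 to 6 above and medians from -1.99 to -0.23. Without microvesicle array 1, 13 members and 2334 of all 3102 tested genes lay below the cells. Without microvesicle array 2, 6 members and 1160 of all 3102 lay above. Against all tested genes the member median lay 0.36 lower as reported and 0.63 lower with median scaling. It lay 0.21 higher with the deposited processed values and 0.082 higher with chip as a block. Detection p 0.05 gave 17 member genes on microvesicle array 1 and 2 on the DNA array. The cause of these changes was not tested.

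Signs turned for Copz2 (-0.15), Sec16a (-0.32), Sec24c (-0.14) and Ssr3 (-0.17) with median scaling, for the same 4 genes (-0.077, -0.25, -0.069 and -0.096) with no normalization, and for Copz1 (0.20), Sec22b (-0.50), Srp68 (0.0098) and Tmed10 (0.048) with chip as a block. Over single arrays left out, Sec16a ran from -0.78 to 1.55, Copz1 from -1.83 to 0.20, Sec22b from -0.50 to 1.37, Srp68 from -1.25 to 0.0098 and Tmed10 from -2.71 to 0.048. Over the other alternatives, 121 of 163 values of single member genes kept direction and side of the threshold, 30 passed it and 12 changed sign. The other filters, the variance trend and the replicate block leave the difference of a gene unchanged. In those settings only the adjusted p could move, so the count of kept directions is no measure of stability. With replicate number as a block limma called 0 lower and 0 higher, at the same median of -1.20. The labels tie no replicate numbers together beyond the number, and deviations of same-numbered arrays correlated at -0.24 across probes.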
